A study of Homo sapiens with 2 samples.

Results

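The 10 genes described here encode the main carriers that move bile acids, conjugates and drugs into and out of hepatocytes. They were chosen by name (SLCO1B1, SLCO1B3, SLCO2B1, SLC10A1, ABCB11, ABCB4, ABCB1, ABCC2, ABCC3 and ABCG2), and all 10 had a row among the 19927 gene rows of the count table. Messenger RNA was sequenced in bulk from Huh7, an established human hepatocellular carcinoma line, in 1 culture carrying a short hairpin RNA directed at PPIL1 (shPPIL1, the hairpin numbered 1 in its title) and in 1 culture carrying a control hairpin (shControl, whose genotype is labelled WT). PPIL1 is a cyclophilin-type prolyl isomerase of the spliceosome, and the comparison addresses how its knockdown alters expression. With 1 library per group there was no replicate error and no test between conditions. Every ratio is shPPIL1 over shControl and compares these 2 libraries. Whether the hairpins were carried by selected clones, and for how long, is not given in the sources used here.

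Hepatocytes take bile acids and organic anions up from blood across the basolateral membrane through sodium-dependent (SLC10A1) and sodium-independent (SLCO family) carriers. ATP-driven pumps of the ABC family then export bile acids, phospholipids, conjugates and drugs across the canalicular membrane into bile, and others return conjugates to blood. Nuclear receptors that sense bile acids and drugs, together with hepatocyte factors such as HNF4A, set the transcription of many of these genes in liver, and low levels of uptake carriers are a known trait of many hepatoma lines.

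The libraries held 41165401 (shPPIL1) and 41015345 (shControl) counted reads. PPIL1 had 104 reads in shPPIL1 and 1505 in shControl, or 6.79% of the control level (exact 95% counting interval 5.51 to 8.29%), lower as its label states. Hepatocyte markers were present in both libraries, with ALB at 3270 FPKM in shPPIL1 and 3203 in shControl (FPKM, reads scaled to gene length and library size). The hepatoma marker AFP stood at 4612 FPKM in shPPIL1 and 4564 FPKM in shControl. All 8 hepatocyte markers were measured, at a summed 6638 FPKM in shPPIL1 and 6278 FPKM in shControl. In bulk RNA, fewer cells of a type and less RNA per cell cannot be told apart.

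Upstream sequence is shown for 4 of the genes because they contrast in the levels described next. SLCO1B1 and SLCO1B3 are closely related chromosome 12 uptake carriers that were both near the bottom, while ABCC2 and ABCB11 are both canalicular pumps, one abundant and one almost without reads. Each run is the 250 bases before the gene's RefSeq start (GRCh38.p14), printed 5′ to 3′ on the gene's strand. Capitals mark matches, on either strand, to an inverted repeat of the kind bound by the bile acid receptor FXR (with 1 base between the repeats). The letters were chosen with the windows in view. Core promoter, NRF2 and AHR motifs were also searched and are not marked.
SLCO1B1, chr12:21130944-21131193, plus strand: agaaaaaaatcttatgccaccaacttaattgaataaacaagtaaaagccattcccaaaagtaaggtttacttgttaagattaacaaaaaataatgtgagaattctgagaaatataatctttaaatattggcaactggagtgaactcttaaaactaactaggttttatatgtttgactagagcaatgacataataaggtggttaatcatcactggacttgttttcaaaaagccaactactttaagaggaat
SLCO1B3, chr12:20810455-20810704, plus strand: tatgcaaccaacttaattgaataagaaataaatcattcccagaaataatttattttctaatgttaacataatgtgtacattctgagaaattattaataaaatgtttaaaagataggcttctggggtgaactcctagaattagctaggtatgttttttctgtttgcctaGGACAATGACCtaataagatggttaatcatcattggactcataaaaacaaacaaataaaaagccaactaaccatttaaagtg
ABCC2, chr10:99782390-99782639, plus strand: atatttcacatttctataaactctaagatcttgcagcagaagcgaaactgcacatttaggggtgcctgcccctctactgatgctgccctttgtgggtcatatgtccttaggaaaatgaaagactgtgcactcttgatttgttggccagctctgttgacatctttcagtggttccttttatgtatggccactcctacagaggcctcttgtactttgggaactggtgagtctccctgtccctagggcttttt
ABCB11, chr2:169031325-169031574, minus strand: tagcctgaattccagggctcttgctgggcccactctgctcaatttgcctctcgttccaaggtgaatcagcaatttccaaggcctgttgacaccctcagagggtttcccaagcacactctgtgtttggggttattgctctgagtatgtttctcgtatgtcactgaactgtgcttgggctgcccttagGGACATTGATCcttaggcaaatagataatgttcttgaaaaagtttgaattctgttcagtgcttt

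The SLCO1B1 and SLCO1B3 windows were 80.5% identical over 226 aligned bases, in an alignment of 274 columns with gaps. Those of ABCC2 and ABCB11 were 60.2% identical over 216 aligned bases, in an alignment of 284 columns with gaps. No background identity from other windows was measured, so the 60.2% is not read as similarity. The ABCB11 window held GGACATTGATC at -64 to -54, and the SLCO1B3 window held GGACAATGACC at -82 to -72. The FXR-type letters stood in 6.31% of all 35116 windows of the same length. The SLCO1B1 and ABCC2 windows held none, which says only that these letters are not in this stretch. GC content was 29.2% for SLCO1B1, 28.4% for SLCO1B3, 45.6% for ABCC2 and 46.4% for ABCB11, against a median of 58.0% over all windows. A match is a run of letters and not a measured binding site.

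The transporters spanned about 3 orders of magnitude, and the canalicular drug pumps dominated in both libraries. ABCB1 was the most abundant, at 86.3 FPKM in shPPIL1 and 78.6 FPKM in shControl, followed by ABCG2 and ABCC2. These 3 pumps made up 90.7% of the summed FPKM of the 10 genes in shPPIL1 and 89.7% in shControl. The 4 uptake carriers together made up 6.22% in shPPIL1 and 7.27% in shControl, nearly all of it SLCO2B1. Among 39 ABC transporter genes listed here, ABCB1, ABCG2 and ABCC2 held the first 3 places in each library, and ABCB6 was next at 36.0 FPKM in shPPIL1 and 32.3 FPKM in shControl. Among 11 SLCO genes, SLCO2B1 was first in each library, and SLCO4C1, a carrier best known from kidney, was next at 4.59 FPKM in shPPIL1 and 5.90 FPKM in shControl. The order of the 10 levels was the same in the 2 libraries. It ran ABCB1, ABCG2, ABCC2, SLCO2B1, ABCC3, ABCB4 and SLCO1B1, each set apart from the next by more than its counting interval. It ended with SLCO1B3, ABCB11 and SLC10A1, where each interval overlapped that of its neighbour. In shControl the interval of SLCO1B3 began at 0.0401 FPKM, above the 0.0365 FPKM that 3 reads would give for SLC10A1.

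**Figure D1:**
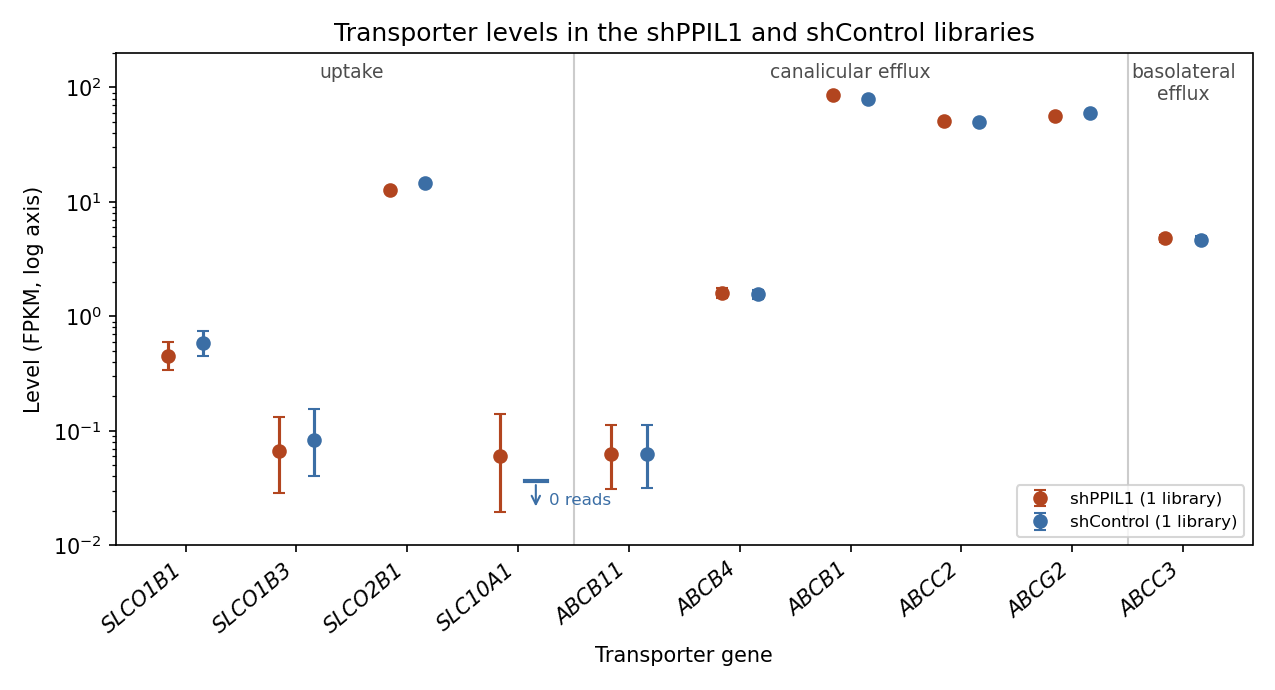
Level of each transporter gene in FPKM (log axis) in the shPPIL1 library (left point of each pair) and the shControl library (right point), with exact 95% Poisson counting intervals as bars. The bar with an arrow is the level that 3 reads would give for SLC10A1, which had 0 reads in shControl. ABCB1, ABCG2 and ABCC2 sit above 49 FPKM in both libraries, and SLCO1B3, ABCB11 and SLC10A1 sit below 0.1 FPKM.

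Among the uptake carriers, SLCO2B1 was the only 1 of 4 above 1 FPKM in either library. SLCO2B1 encodes OATP2B1, a broadly expressed carrier of steroid sulfates and drugs (chromosome 11 from 75100563 to 75206549 on GRCh38, 14 exons in its main GENCODE transcript). It had 2256 reads and 12.7 FPKM in shPPIL1, against 2587 reads and 14.6 FPKM in shControl. Its ratio was 0.857 (exact 95% counting interval 0.809 to 0.907), so the shPPIL1 library was lower by more than counting error, by a factor of 1.17. This was the largest departure from 1 among the members with over 1000 reads in either library, and 27.3% of all genes kept lay at least as far from 1.

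SLCO1B1 encodes OATP1B1, the liver-restricted carrier of bilirubin, bile acids and statins (chromosome 12 from 21131202 to 21239246, 15 exons). It had 52 reads in shPPIL1 and 67 in shControl, or 0.453 FPKM in shPPIL1 and 0.586 FPKM in shControl. The ratio of 0.763 had an interval of 0.520 to 1.11, which includes 1. SLCO1B3 encodes OATP1B3, the closest relative of OATP1B1 and likewise restricted to liver in healthy tissue (chromosome 12 from 20810702 to 20916911, 14 exons). It had 8 reads in shPPIL1 and 10 in shControl, a ratio of 0.786 (0.270 to 2.21). Of the 100-base windows of its main transcript, 66.5% also matched an overlapping GENCODE gene on the same strand, and the row for the readthrough gene SLCO1B3-SLCO1B7 had 0 reads in both libraries. The SLCO1B3 count is therefore uncertain, since the treatment of shared reads is not given. For SLCO1B1, 5.16% of the 100-base windows likewise matched an overlapping gene on the same strand, so the same caution applies to a smaller part of it.

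SLC10A1 encodes NTCP, the sodium-dependent bile acid carrier of hepatocytes that also serves as the entry receptor of hepatitis B virus (chromosome 14 from 69775417 to 69797289, 5 exons). It had 5 reads in shPPIL1 and 0 in shControl. The counting interval of the ratio began at 0.900 and had no upper limit, so a difference was not detectable at this depth. In shPPIL1 its level was 0.0607 FPKM (counting interval 0.0197 to 0.142), and in shControl a count of 0 allows up to 0.0365 FPKM at 3 reads.

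Of the 5 canalicular pumps, ABCB1 was higher in shPPIL1, ABCG2 was lower, and the other 3 had intervals including 1. ABCB1 encodes P-glycoprotein or MDR1, which exports hydrophobic drugs (chromosome 7 from 87503633 to 87713323, 28 exons). It had 19282 reads and 86.3 FPKM in shPPIL1, against 17508 reads and 78.6 FPKM in shControl, a ratio of 1.08 (1.06 to 1.10). By level it ranked 844 of 15657 genes with an FPKM above 0 in shPPIL1 and 939 of 15589 in shControl. ABCG2 encodes the breast cancer resistance protein, a half-transporter of urate, sulfates and drugs (chromosome 4 from 88090264 to 88231322, 16 exons). It had 10281 reads and 56.7 FPKM in shPPIL1, against 10885 reads and 60.2 FPKM in shControl, a ratio of 0.928 (0.903 to 0.953). Both departures were small against the genes kept, of which 53.5% lay at least as far from 1 as ABCB1 and 55.5% as far as ABCG2.

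ABCC2 encodes MRP2, the exporter of glucuronide and glutathione conjugates, including conjugated bilirubin (chromosome 10 from 99782640 to 99852594, 32 exons). It had 9037 reads and 50.5 FPKM in shPPIL1, against 8841 reads and 49.6 FPKM in shControl. Its ratio of 1.00 had the narrowest interval among the members that included 1, from 0.975 to 1.03.

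ABCB4 encodes MDR3, the floppase that brings phosphatidylcholine into bile (chromosome 7 from 87401697 to 87480435, 28 exons). It had 419 reads and 1.60 FPKM in shPPIL1, against 406 reads and 1.56 FPKM in shControl, a ratio of 1.01 (0.882 to 1.17). ABCB4 lies on the same strand as its paralog ABCB1 with 23197 bases between them, yet the level of ABCB1 was 53.9 times that of ABCB4 in shPPIL1 and 50.5 times in shControl. Of the 100-base windows along their main transcripts, 0.641% for ABCB1 and 0.509% for ABCB4 matched the other gene. RUNDC3B, on the opposite strand, overlaps the ABCB1 gene but no exon of its main transcript.

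ABCB11 encodes BSEP, the canalicular bile salt export pump and the rate-limiting step of bile acid secretion (chromosome 2 from 168915498 to 169031324, 28 exons). It had 11 reads in each library, or 0.0627 FPKM in shPPIL1 and 0.0629 FPKM in shControl. The ratio of 0.982 had an interval of 0.386 to 2.50, so only a difference of several fold could have been seen. The pump for bile salts and the carrier for their uptake, SLC10A1, were thus both among the 3 lowest genes. Their level intervals overlapped in each library, with the 3-read floor standing in for SLC10A1 in shControl. Such an overlap is not a test of equal levels, and none was run between these genes.

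ABCC3 encodes MRP3, which returns glucuronides and bile acids to blood across the basolateral membrane (chromosome 17 from 50634777 to 50692252, 31 exons). It had 750 reads and 4.82 FPKM in shPPIL1, against 727 reads and 4.69 FPKM in shControl, a ratio of 1.01 (0.914 to 1.12). ABCC4, a second basolateral exporter of conjugates and cyclic nucleotides outside the 10 genes, had 7.60 FPKM in shPPIL1 and 8.30 FPKM in shControl, a ratio of 0.903 (0.848 to 0.961).

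Across the 10 genes, none reached 1.5-fold with an interval excluding 1. A gene was kept for counting when it had at least 1 CPM (counts scaled to library size) in 1 library or more, and 7 of the 10 were kept, while SLCO1B3, SLC10A1 and ABCB11 were not. Of the 12540 genes kept, 4.24% reached 1.5-fold with an interval excluding 1, and 0 of the 7 transporters did. At 2-fold the count was also 0, against 0.526% of genes higher, 0.518% lower and 1.04% in either direction. Without the fold, 1 of the 7 had an interval above 1 (ABCB1) and 2 had an interval below 1 (SLCO2B1 and ABCG2), against 24.6% above and 26.4% below among the genes kept, or 51.1% in either direction. Such intervals are more common among deeply read genes. Of the 4737 genes whose reads summed over both libraries to 4000 or more, 28.8% lay above 1 and 35.1% below, and 4 of the transporters were in that class. Calls at 1.5-fold ran the other way with depth. They made 0.486% of that class, 2.05% of the class below it, from 400 reads up, and 20.4% of genes under 400 reads. Of the 7 transporters, 2 were in the middle class and 1 was under 400 reads. The 4.24%, here and for the related lists, is not matched for depth. The median log2 ratio of the 7 was 0.0061, that of all genes kept was -0.0017, and the middle 50% of all genes kept ran from -0.13 to 0.12. With so few members these counts describe the 7 genes and set them apart from no other list. The reads of all 10 genes together made 1023 CPM in shPPIL1 and 1001 CPM in shControl, a ratio of 1.01 (0.994 to 1.02).

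**Figure D2:**
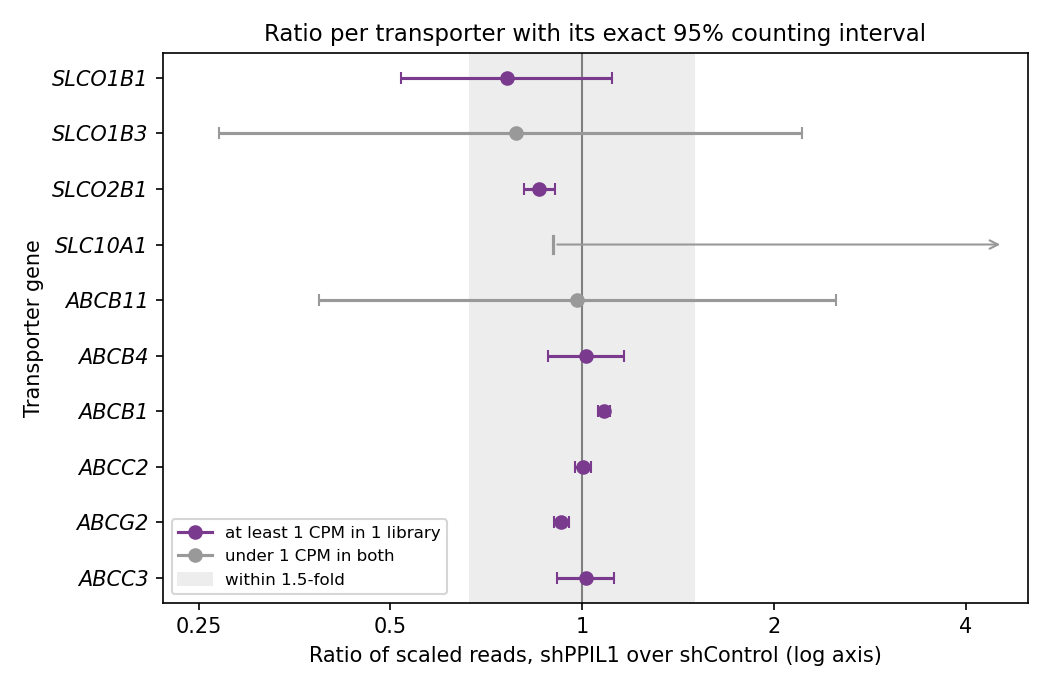
Ratio of scaled reads, shPPIL1 over shControl (log axis), for each transporter, with its exact 95% counting interval as a bar. Gray points are genes under 1 CPM in both libraries, the arrow marks the interval of SLC10A1, which has no upper limit, and the gray band spans 1.5-fold either way. All 9 point estimates lie inside the band, and the bars of SLCO2B1, ABCB1 and ABCG2 do not touch 1.

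**Figure D3:**
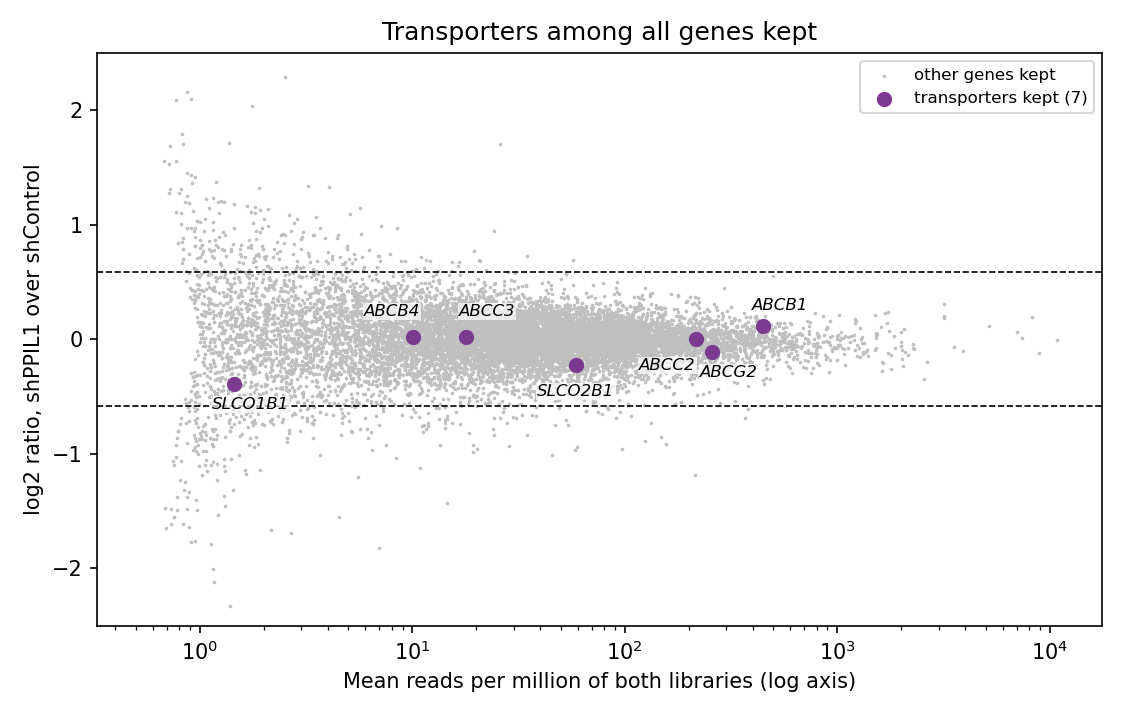
The log2 ratio of shPPIL1 over shControl against the mean CPM of both libraries (log axis) for 12540 genes kept, with the 7 kept transporters in purple and 1.5-fold as dashed lines. The transporters lie inside the dashed lines, and 11 genes beyond a log2 ratio of 2.5 fall outside the plotted range.

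Ratios between transporters within a library do not depend on how the libraries were scaled. Of the 21 pairs among the 7 kept genes, 8 changed between the libraries by more than counting error, and all 8 involved SLCO2B1 or ABCG2 or set ABCB1 against ABCC2. ABCB1 had 8.55 reads per SLCO2B1 read in shPPIL1 and 6.77 in shControl, a change of 1.26-fold (exact 95% interval 1.19 to 1.34). It had 1.88 reads per ABCG2 read in shPPIL1 and 1.61 in shControl, a change of 1.17-fold (1.13 to 1.21). ABCB1 to ABCC2 changed by 1.08-fold (1.04 to 1.12), and ABCC2 to SLCO2B1 by 1.17-fold (1.10 to 1.25). ABCB4 to ABCC3, the pair that changed least, stood at 0.559 reads in shPPIL1 and 0.558 in shControl (1.00-fold, 0.841 to 1.19). The uptake carriers together had 2321 reads in shPPIL1 and 2664 in shControl, a ratio of 0.856 (0.809 to 0.905) that rests on SLCO2B1. The 6 efflux pumps had 39780 reads in shPPIL1 and 38378 in shControl, a ratio of 1.02 whose interval (1.004 to 1.033) lay just above 1. Of these pumps ABCB1 was higher, ABCG2 was lower and the others had intervals including 1. Unlike the ratios between transporters, these pooled ratios depend on the scaling. The median log2 ratio of all genes kept was -0.0017 with TMM and 0.019 with total counts only.

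Other solute carriers for bile acids, organic anions and cations were measured for comparison. Of 29 listed, 28 had a row and 17 were kept, of which 2 reached 1.5-fold lower and 0 higher, against 2.22% and 2.02% of the genes kept. Those shares are not matched for read depth. In either direction, 20.4% of genes under 400 reads over both libraries reached 1.5-fold, and SLC10A5, 1 of the 2, is in that class. By the interval alone 7 were lower, 2 were higher and 8 included 1, where 51.1% of all genes kept lay outside 1 (24.6% higher, 26.4% lower). Their median log2 ratio was -0.12. SLC51B, the beta subunit of the basolateral bile acid exporter OST, had 333 reads and 8.75 FPKM in shPPIL1, against 498 reads and 13.1 FPKM in shControl, a ratio of 0.657 (0.570 to 0.756). Its partner SLC51A had 37 reads in shPPIL1 and 50 in shControl, a ratio of 0.727 with an interval of 0.462 to 1.13 that includes 1. SLC10A5, an NTCP relative of unsettled function, had 28 reads in shPPIL1 and 49 in shControl, a ratio of 0.561 (0.340 to 0.911). SLC10A3, a further NTCP relative, was 1.27-fold higher (1.13 to 1.43), with 650 reads in shPPIL1 and 502 in shControl.

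Other ABC transporters showed no call at 1.5-fold, against 4.24% of all genes kept, a share not matched for read depth. Of 33 listed, 22 were kept, 7 with an interval above 1, 6 below 1 and 9 including 1, and the median log2 ratio was 0.038. Over all genes kept, 24.6% lay above 1 and 26.4% below. ABCA5, a lysosomal and endosomal lipid transporter, was 1.28-fold higher (1.18 to 1.39), at 3.94 FPKM in shPPIL1 and 3.03 FPKM in shControl. ABCD3, a peroxisomal importer of branched fatty acids and bile acid intermediates, had 14.7 FPKM in shPPIL1 and 15.8 FPKM in shControl, a ratio of 0.915 (0.879 to 0.952).

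Genes that build the canalicular membrane and deliver pumps to it were expressed in both libraries. None of 26 kept reached 1.5-fold with an interval excluding 1, against 4.24% of all genes kept, a share not matched for read depth. They had 8 intervals above 1, 9 below 1 and 9 including 1, beside the 51.1% of all genes kept that lay outside 1, and their median log2 ratio was -0.030. ATP8B1, the aminophospholipid flippase that protects the canalicular membrane, was 1.22-fold higher (1.17 to 1.27), at 20.3 FPKM in shPPIL1 and 16.5 FPKM in shControl. ATP7B, the copper exporter, had 5.09 FPKM in shPPIL1 and 6.10 FPKM in shControl, a ratio of 0.822 (0.764 to 0.885).

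None of 31 kept transcription factors that control transporter genes in liver reached 1.5-fold. Over all genes kept, not matched for read depth, 4.24% did so with an interval excluding 1. By the interval alone 14 were higher, 8 were lower and 9 included 1, against 24.6% higher and 26.4% lower over all genes kept, a share in either direction that rises with read depth. Their median log2 ratio was 0.087. AHR, the receptor for dioxin-like compounds, had 4475 reads in shPPIL1 and 6039 in shControl, a ratio of 0.728 (0.700 to 0.757). NR0B2, the corepressor SHP induced by FXR, had 606 reads in shPPIL1 and 797 in shControl, a ratio of 0.747 (0.671 to 0.831). The FXR gene NR1H4 itself had 1511 reads in shPPIL1 and 1535 in shControl, and its ratio of 0.967 had an interval of 0.900 to 1.04 that includes 1. NR1I2, the drug sensor PXR, had a ratio of 0.780 (0.668 to 0.911), with 297 reads in shPPIL1 and 374 in shControl. NR1I3, the related sensor CAR, had 80 reads in shPPIL1 and 101 in shControl, a ratio of 0.778 with an interval of 0.573 to 1.05.

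Further factors of the list went in both directions by small amounts. HNF4A, a central hepatocyte factor, at 94.0 FPKM in shPPIL1 and 87.3 FPKM in shControl, had a ratio of 1.06 (1.04 to 1.08). NFE2L2, the oxidative stress factor NRF2, had a ratio of 0.913 (0.892 to 0.935). NR5A2, the liver receptor homolog LRH-1, was the highest of the list by its interval bound, at 1.23-fold (1.18 to 1.29), with 4428 reads in shPPIL1 and 3536 in shControl.

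In the list of bile acid synthesis, conjugation and signalling genes, 18 of 24 were kept, and the median log2 ratio was 0.062. None of the 18 reached 1.5-fold with an interval excluding 1, against 4.24% of all genes kept, a share not matched for read depth. By the interval alone 7 were higher, 4 were lower and 7 included 1, compared with 24.6% higher and 26.4% lower among all genes kept. CYP7A1, the rate-limiting enzyme of the classic synthesis route, had 0 reads in both libraries. SULT2A1, which sulfates bile acids and steroids, was 1.41-fold higher (1.35 to 1.48), with 4451 reads in shPPIL1 and 3093 in shControl. FGF19, the bile-acid-induced hormone that represses CYP7A1, had 505 reads in shPPIL1 and 676 in shControl, a ratio of 0.734 (0.653 to 0.825).

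**Figure D4:**
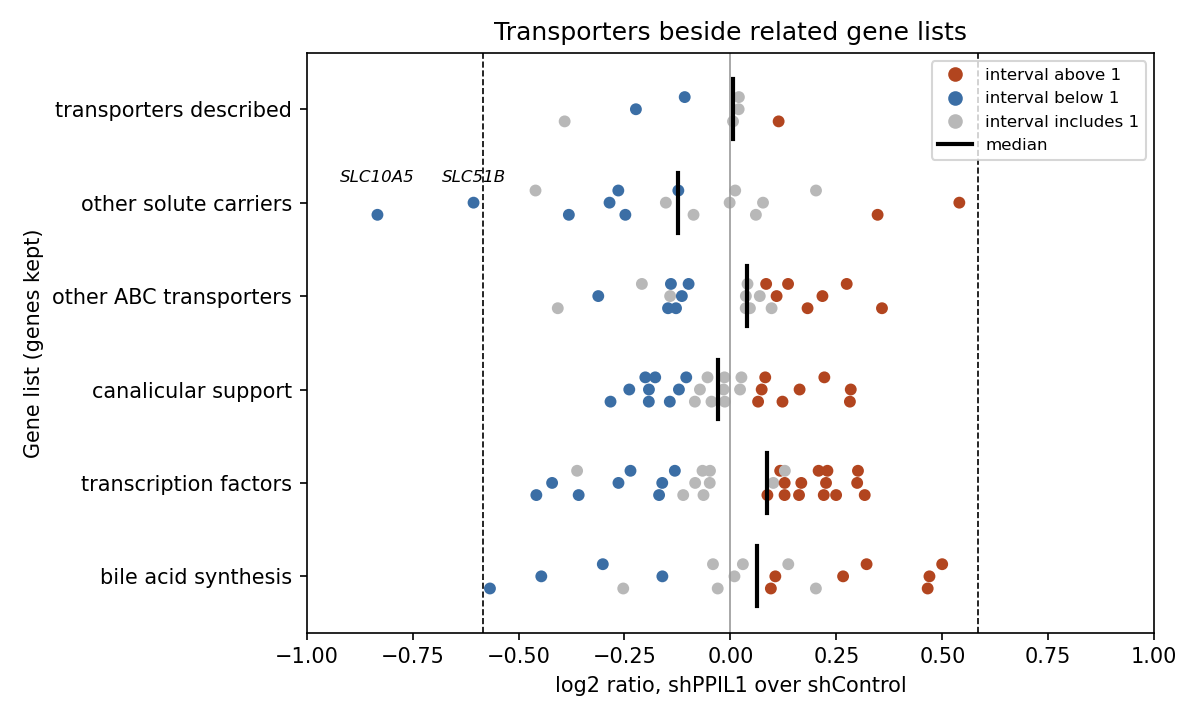
The log2 ratio of shPPIL1 over shControl for each gene kept in the transporter list and 5 related lists, colored by whether the exact 95% counting interval lies above 1, below 1 or includes 1, with list medians as black bars and 1.5-fold as dashed lines. SLC51B and SLC10A5 are the genes past 1.5-fold with an interval excluding 1, and the median of the transporters is 0.0061.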

How the data were processed

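PolyT-selected RNA of 2 Huh7 cultures was sequenced, per the labels' protocols. The authors deposited raw counts per gene and, for each library, FPKM values. The submitters' processing notes name hg38. No source used here gives the aligner, counter, annotation, strand setting or handling of shared reads. The deposited FPKM fit the count, the library total and a whole-number gene length (within 0.001 bases) for 99.9% of genes in each library. A further 7 count columns match no sample and were not used.

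Counts were scaled with TMM factors (edgeR 4.0.16, R 4.3.3) of 1.01 for shPPIL1 and 0.993 for shControl, and 12540 genes at 1 CPM or more in at least 1 library were kept. Intervals are exact 95% Clopper-Pearson (ratios), Poisson (levels) or conditional (pairs) bounds from scipy 1.17.1. They cover counting error only, since 1 library per group gives no estimate of variation between cultures. Each read is also treated as a separate molecule. Copies made by PCR could not be told apart here for want of molecular identifiers. The bounds may therefore be too narrow even for counting error, and wording such as more than counting error refers to these bounds. Equal counts of 100 and 10000 give intervals reaching 1.33-fold and 1.03-fold. The floor is 3 reads. The ratio step was checked on simulated counts with counting error alone, which leaves out variation between cultures.

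Positions and shared 100-base windows came from GENCODE 29, and upstream sequences from a table of RefSeq starts, in which 8 of the 10 genes were matched. Genes named from each related list are those past 1.5-fold (at most 3 per direction) or else the most extreme interval bound, plus a fixed set of receptors, factors and exporters. One gene of that set is not reported here. Members and lists were chosen with earlier results of these data known. Alternatives were DESeq2 1.42.0 size factors, total counts, FPKM on a log2 scale, and other filters and thresholds.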

Additional observations from a re-analysis of the deposited data

How the results depend on the processing

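The 9 transporters with reads in both libraries kept the sign of their log2 ratio under DESeq2 size factors, total counts, log2(FPKM + 0.1) and log2(FPKM + 1). Every one of these values lay inside its counting interval. These settings rescale the same counts, so they are not independent checks of the ratios. ABCB11 had 11 reads in each library, so its sign came from the scaling alone. Where the counting interval includes 1, a kept sign gives no direction. SLCO2B1 ran from -0.22 to -0.19, ABCG2 from -0.11 to -0.086 and ABCB1 from 0.11 to 0.13. The count of transporters past 1.5-fold was 0 under these settings, without a filter, at 5 CPM and at 2-fold. By the interval alone it was 1 higher and 2 lower. Their mean log2 ratio was -0.080, against a median of 0.0061. Without a filter the median was -0.014 for the other solute carriers and 0.019 for the transcription factors, and 1 other ABC transporter was lower past 1.5-fold. At 5 CPM the solute carriers had 1 gene lower past 1.5-fold, and the bile acid list a median of 0.11. Over all genes, 253 higher and 279 lower at 1.5-fold became 576 and 548 without a filter, 66 and 101 at 5 CPM, and 66 and 65 at 2-fold. With log2(FPKM + 1) they were 36 and 59. On the FPKM scales every count rests on the fold alone, since no counting interval was applied there. The causes of these shifts were not tested. The low counts of SLC10A1, ABCB11, SLCO1B3 and SLCO1B1 limit what could be seen in them. No paired analysis was possible because each group has 1 library, and for the same reason no replicate could be left out.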

Other observations

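Several enterocyte genes, whose tissue also carries ABCB1, ABCG2 and ABCC2 on its apical membrane, were expressed in both libraries. CDX2, the intestinal homeobox factor, had 104.6 FPKM in shPPIL1 and 91.6 FPKM in shControl, a ratio of 1.13 (exact 95% counting interval 1.10 to 1.15). SI, the brush-border sucrase-isomaltase, was 1.33-fold higher (1.27 to 1.39), with 4332 reads in shPPIL1 and 3204 in shControl, and LCT, the lactase gene, had a ratio of 0.928 (0.883 to 0.975). FABP2, the intestinal fatty acid binding protein, had 2 reads in shPPIL1 and 0 in shControl. The 5 listed enterocyte markers summed to 177.3 FPKM in shPPIL1 and 159.5 FPKM in shControl. Their part in the transporter levels was not tested.

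Of the 5 listed cholangiocyte markers 4 were kept, and the list summed to 500.4 FPKM in shPPIL1 and 499.5 FPKM in shControl. EPCAM stood at 328.4 FPKM in shPPIL1 and 308.0 FPKM in shControl, and SOX9 at 45.8 FPKM in shPPIL1 and 54.4 FPKM in shControl. KRT19 and CFTR were also kept, while KRT7 had 0 reads in both libraries. Listed kidney tubule markers summed to 1.57 FPKM in shPPIL1 and 1.36 FPKM in shControl. Stellate markers summed to 2.34 FPKM in shPPIL1 and 2.15 FPKM in shControl, endothelial markers to 1.41 FPKM in shPPIL1 and 1.61 FPKM in shControl, and macrophage markers to 18.6 FPKM in shPPIL1 and 20.3 FPKM in shControl. COL1A2 of stellate cells, LYVE1 of endothelium and CD163 of macrophages had 0 reads in both libraries. CUBN, an endocytic receptor of kidney tubules, had 168 reads in shPPIL1 and 98 in shControl, a ratio of 1.68 (1.31 to 2.18). The macrophage receptor gene MARCO had 20 reads in shPPIL1 and 51 in shControl, a ratio of 0.385 (0.218 to 0.658). MARCO stood at 0.315 FPKM in shPPIL1 and 0.807 FPKM in shControl. Little of the macrophage sum therefore came from MARCO, and none from CD163.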
